A study of Drosophila melanogaster with 6 samples.

Results

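Aminoacyl-tRNA synthetases were followed in the indirect flight muscles (IFM) of Drosophila pupae with and without Antp. They were taken as all genes whose symbol starts with a capital, holds only letters and ends in RS, alone or followed by -m, -alpha or -beta, which gave 33 of the 17611 genes counted. None ends in -alpha or -beta. Of the 33, 15 have a symbol ending in -m, for the enzymes that work in mitochondria, and the remaining 18 are called cytosolic here. Muscles were dissected by hand at 72 hours after puparium formation (APF) from pupae kept at 25°C. All pupae carried Act88F-Gal4, a driver built on the promoter of the flight muscle actin Act88F, together with either UAS-GFPnls (the control, called UAS-GFP here) or UAS-Antpnls (called UAS-Antp here). There were 3 samples of either genotype, with muscle of 6 to 8 pupae in every one, and stranded libraries were made from polyA RNA with 15 PCR cycles. The labels name the samples independent replicates, whereas the methods of the study count, for RNA-seq, 3 technical replicates but 1 biological one, so the p-values cover the spread between these samples, which may be technical. The UAS-Antp samples are numbered 1 to 3 as in the count table, and the labels do not tie these numbers to their own, 4 to 6.

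Each synthetase joins one amino acid to the tRNAs that carry it to the ribosome. Animal cells hold separate sets, encoded in the nucleus: one for the ribosomes of the cytosol, and one imported into mitochondria, where it serves the few respiratory chain subunits that the mitochondrial genome encodes. Flight muscle is among the tissues richest in mitochondria, and its fibers grow and fill with mitochondria during the pupal stages studied here.

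The control libraries held 47460809 to 64485309 counts, and those with Antp held 63217976 to 77781458. Antp itself had 33 to 70 counts with UAS-GFP and 517985 to 1092524 counts with UAS-Antp. Levels are given as counts per 1000000 (CPM) after scaling the libraries with TMM, a method of edgeR that takes most genes as unchanged. Its factors were 0.609 to 0.674 for control libraries and 1.53 to 1.60 for those with Antp, so the choice of scaling bears on every direction given below. All 11 flight muscle markers were detected in every sample, and by the test used below all 11 were lower with UAS-Antp, with a sum of 291246 to 327504 CPM in control samples and 46284 to 53197 CPM with Antp. All 4 markers of trachea, the air tubes that run into flight muscle, were lower too, from 657 to 706 CPM in sum down to 143 to 214 CPM, as was 1 of the 3 tendon markers, from 25.3 to 35.9 CPM in sum down to 8.76 to 18.5 CPM. With TMM scaling, no marker of neurons (4), fat body (4) or hemocytes (4, of which 3 were tested) passed, and the sums ran from 46.0 to 53.5, from 239 to 452 and from 6.69 to 10.9 CPM with UAS-GFP and from 45.8 to 71.8, from 298 to 447 and from 9.52 to 17.7 CPM with UAS-Antp. With total counts 8 of the 11 muscle markers, 1 of the 4 trachea markers and 0 of the 3 tendon markers were lower, and the neuron markers elav and nSyb, the fat body markers Fbp1 and Lsp2 and the hemocyte marker srp were higher. The hemocyte gene He had 3 counts or fewer in all samples but 1. All 6 testis markers were at 3 counts or fewer in each UAS-GFP sample, and 1 of them, tomb, had 687 to 800 counts in the UAS-Antp samples. The part of these cell types in the results was not tested. In bulk muscle, fewer cells of a type and less RNA per cell cannot be told apart.

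In control muscle, the 2 groups of synthetases, as the rule takes them, had similar sums once levels were divided by exon length, as they must be to compare genes. The 18 cytosolic genes summed to 462 to 477 CPM per kilobase in the UAS-GFP samples and the 15 mitochondrial genes to 429 to 438 CPM per kilobase. The cytosolic sum leaves out the cytosolic phenylalanine enzyme, alpha-PheRS and beta-PheRS, which the rule does not take. The mitochondrial sum includes PheRS-m, so the similarity of the sums depends on which genes the rule takes. Within each group the levels were far apart. The most abundant of all was PheRS-m, the single-chain mitochondrial enzyme for phenylalanine, at 149.9, 156 and 153 CPM per kilobase in the 3 UAS-GFP samples, which was 34.2% to 36.5% of the mitochondrial sum. TrpRS-m and TyrRS-m, the mitochondrial enzymes for tryptophan and tyrosine, followed at means of 59.8 and 55.2 CPM per kilobase. The lowest mean of the 15 was that of MetRS-m, for methionine, at 4.56. ArgRS-m was close to it, at 4.58, and the samples of these genes overlapped. Among the cytosolic enzymes, AspRS, for aspartate, was highest, at 101, 99.4 and 101 CPM per kilobase, or 21.1% to 22.0% of its group. LysRS and ThrRS, for lysine and threonine, were next at 51.4 and 48.3, and their sample ranges did not meet that of AspRS. Cytosolic MetRS had the lowest mean of its group, at 3.41 CPM per kilobase, and was the lowest of the group in each UAS-GFP sample. Every one of the 33 genes was well counted, with between 261 and 19293 counts in each sample, and the standard deviation between samples of a genotype was 1.07% to 23.1% of the mean.

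**Figure D1:**
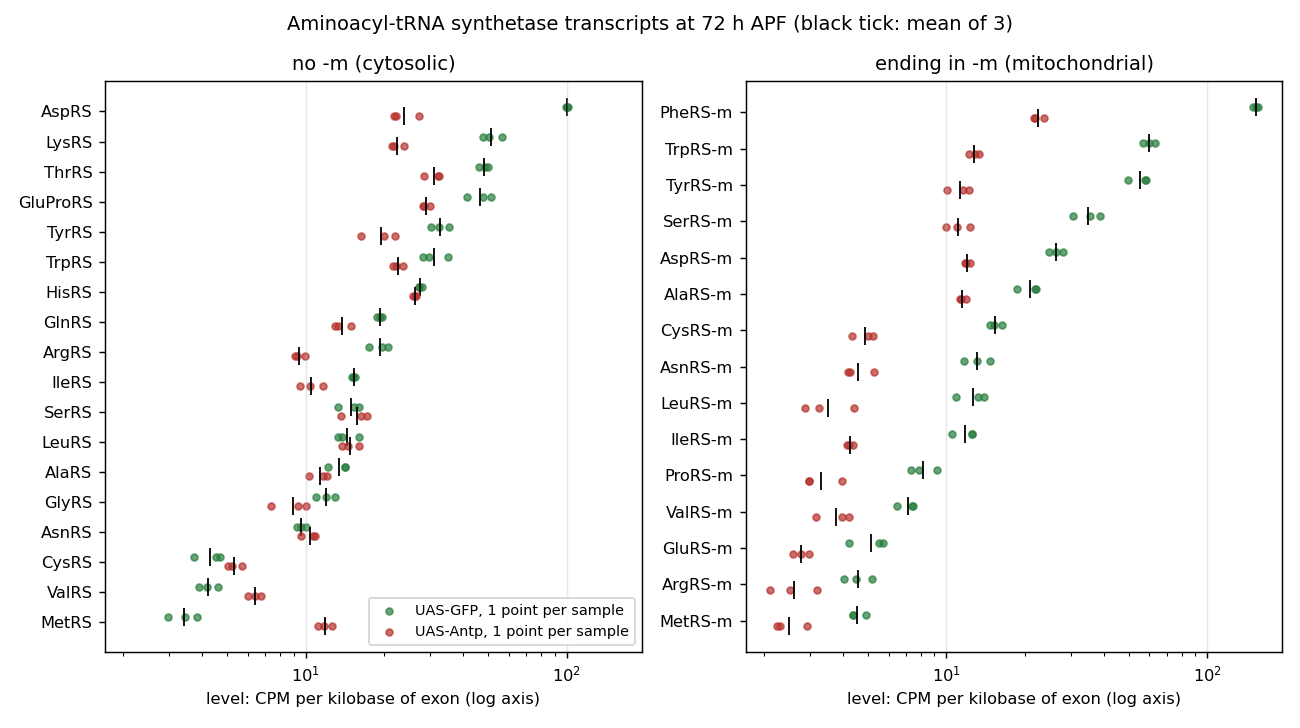
Level of each synthetase in each sample, as TMM-scaled CPM per kilobase of exon on a logarithmic axis, for cytosolic genes (left) and mitochondrial genes (right), with green points for UAS-GFP, red points for UAS-Antp and a black tick at each mean of 3. All 15 mitochondrial genes lie lower with UAS-Antp without overlap on this scale, whereas the cytosolic genes range from AspRS, lower at 23.8 instead of 100.5 CPM per kilobase, to MetRS, higher at 11.9 instead of 3.41; with libraries scaled by total counts 7 of the 15 mitochondrial genes would have a fold change above 0.

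With UAS-Antp, the mitochondrial synthetases stood lower as a group on the TMM scale, and lower against the cytosolic ones on any scale. In the quasi-likelihood test of edgeR, at a threshold of 0.001 after Benjamini-Hochberg adjustment over 9546 genes, 13 of 15 were lower, 0 were higher and 2 did not pass, with TMM scaling, whereas scaling by total counts left 3 of 15 lower and none higher, beside 7.18% of all genes lower and 52.1% higher on that scale. For comparison, 35.6% of all genes tested passed, made up of 16.3% that were higher and 19.3% that were lower. In all 15 genes every UAS-Antp sample was below every UAS-GFP sample, as in 30.6% of all genes tested, and 37.6% of all genes tested lay the other way. The median log2 fold change of the 15 genes was -1.48, against 0.17 over all genes tested, and all 15 lay below the median of all genes under both scalings. In sum, they came to 941 ± 15.6 CPM (SD, n = 3) in control muscle and 282 ± 8.58 CPM (SD, n = 3) in muscle with Antp. As a plain share of all counts, with no scaling factor, they held 0.0571% to 0.0625% in the UAS-GFP samples and 0.0436% to 0.0456% in those with Antp.

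The 3 mitochondrial enzymes most abundant per length in control muscle were also the 3 with the largest drops. PheRS-m (FBgn0275436, chromosome arm 2R, 13968308 to 13969902, plus strand) was at 229, 239 and 234 CPM in control muscle and 36.2, 33.1 and 33.4 CPM in muscle with Antp. Its level with UAS-Antp was 14.6% of the control, with a log2 fold change of -2.77 ± 0.10 (SE, adjusted p = 1.15e-08), and its share of the mitochondrial sum per length was 19.0% to 20.5%. TyrRS-m (FBgn0035064, 2R, 24781726 to 24783500, minus strand) was at 89.2, 76.5 and 89.5 CPM in control muscle and 17.9, 15.5 and 18.7 CPM in muscle with Antp. Its log2 fold change was -2.29 ± 0.12 (SE, adjusted p = 9.53e-08), and it shares 54 exon bases with CG3594 on the opposite strand. TrpRS-m (FBgn0036763, 3L, 17849727 to 17852453, plus strand) was at 156, 141 and 147 CPM in control muscle and 33.05, 31.8 and 30.2 CPM in muscle with Antp, and its log2 fold change was -2.23 ± 0.10 (SE, adjusted p = 3.84e-08). The groups were far apart in all 3 genes, and these 3 stayed lower, with adjusted p from 4.43e-07 to 2.52e-05 in the same test, when libraries were scaled by total counts, at log2 fold changes of -1.46, -0.97 and -0.91.

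A further 5 mitochondrial enzymes fell to between 27.8% and 36.0% of the control. LeuRS-m, for leucine, was at 42.2, 32.8 and 39.8 CPM in the control samples and 8.66, 9.84 and 13.4 CPM with Antp, a log2 fold change of -1.85 ± 0.18 (SE, adjusted p = 8.97e-06). CysRS-m, for cysteine, was at 31.1, 31.9 and 34.4 CPM in the control samples and 11.02, 9.19 and 10.5 CPM with Antp, a change of -1.66 ± 0.13 (SE, adjusted p = 1.52e-06). SerRS-m, which charges both mitochondrial serine tRNAs, was at 98.9, 90.8 and 78.2 CPM in the control samples and 31.4, 25.5 and 28.03 CPM with Antp, a change of -1.66 ± 0.13 (SE, adjusted p = 1.46e-06). In each of these 3 the lowest control sample was more than any UAS-Antp sample by a wide margin, the closest being LeuRS-m at 32.8 against 13.4 CPM. AsnRS-m, for asparagine, was at 17.3, 21.7 and 19.4 CPM in the control samples and 6.31, 6.24 and 7.80 CPM with Antp, a change of -1.52 ± 0.16 (SE, adjusted p = 1.71e-05). IleRS-m, for isoleucine, was at 36.2, 36.2 and 30.5 CPM in the control samples and 12.3, 12.1 and 12.7 CPM with Antp, a change of -1.48 ± 0.12 (SE, adjusted p = 2.84e-06). All 5 passed in each of the 6 fits that left out 1 sample. None of the 5 passed when libraries were scaled by total counts, where their log2 fold changes were -0.52, -0.35, -0.34, -0.21 and -0.16.

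In the remaining 7 mitochondrial genes the differences were smaller, and with libraries scaled by total counts each of the 7 had a fold change above 0 that did not pass. AspRS-m, for aspartate, was at 123, 109.6 and 116 CPM in the control samples and 54.5, 52.2 and 52.5 CPM with Antp, a log2 fold change of -1.13 ± 0.10 (SE, adjusted p = 3.56e-06). AlaRS-m, for alanine, was at 60.2, 70.9 and 71.4 CPM in the control samples and 36.5, 38.4 and 36.6 CPM with Antp, a change of -0.86 ± 0.11 (SE, adjusted p = 6.16e-05). Both passed in all 6 fits that left out 1 sample, and they stood at 45.7% and 55.1% of the control. ProRS-m, for proline, was at 11.1, 14.02 and 11.9 CPM in the control samples and 4.53, 4.52 and 6.02 CPM with Antp, a change of -1.30 ± 0.19 (SE, adjusted p = 0.000153), and it passed in 5 of those 6 fits. ValRS-m, for valine, was at 24.02, 21.1 and 24.2 CPM in the control samples and 12.9, 10.3 and 13.7 CPM with Antp, a change of -0.91 ± 0.15 (SE, adjusted p = 0.000421), and it passed in 2 of the 6. MetRS-m was at 18.8, 18.9 and 21.3 CPM in the control samples and 12.6, 9.93 and 9.71 CPM with Antp, a change of -0.87 ± 0.15 (SE, adjusted p = 0.000601), and it passed in 1 of the 6. Over the 6 fits the log2 fold change ran from -0.999 to -0.791 for ValRS-m and from -1.003 to -0.806 for MetRS-m. Neither of the last 2 genes passed: GluRS-m, for glutamate, had a log2 fold change of -0.89 (95% interval -1.31 to -0.48, adjusted p = 0.002) and ArgRS-m, for arginine, one of -0.81 (95% interval -1.24 to -0.38, adjusted p = 0.00427). ArgRS-m shares 325 exon bases with mRpS9, a gene of the mitochondrial ribosome with 14694 to 25693 counts, on the opposite strand, and the counting was by strand. GluRS-m lies next to the cytosolic TyrRS on 3L (16415292 to 16417177 and 16417349 to 16419302, both on the minus strand), with 172 bases from one to the next.

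**Figure D2:**
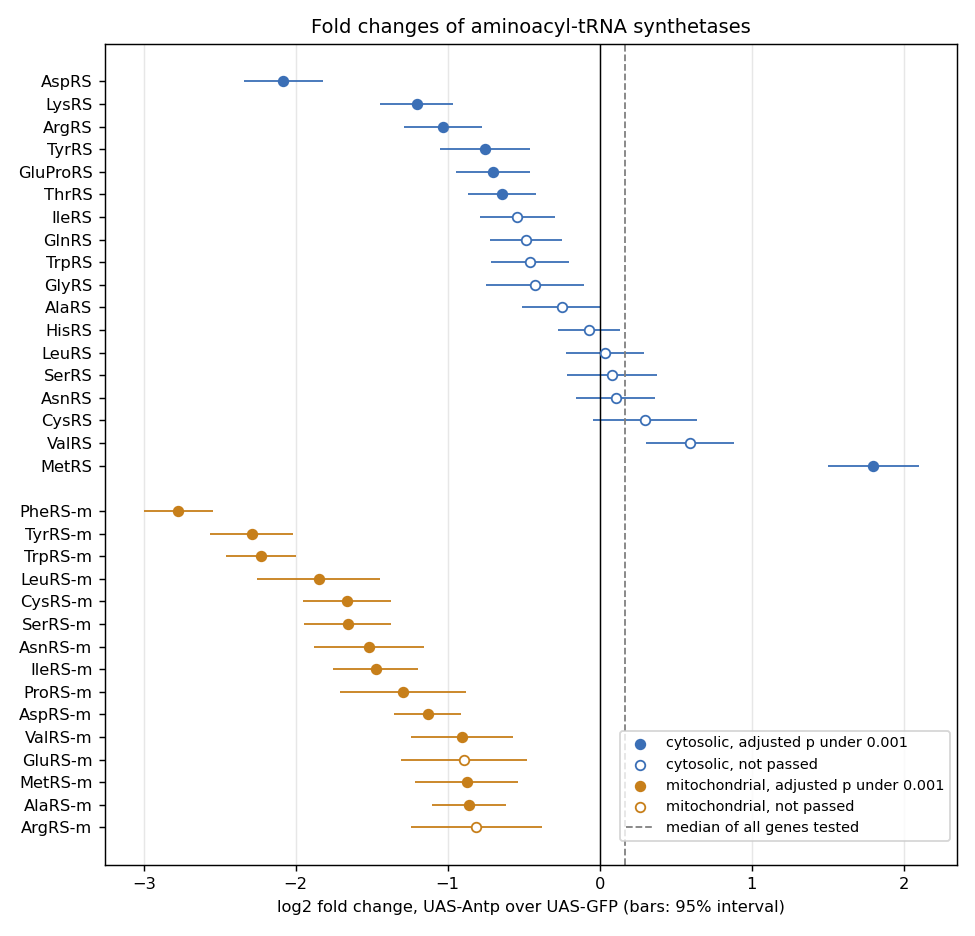
Log2 fold change (UAS-Antp against UAS-GFP) of each synthetase, with its 95% interval (bars), filled points for an adjusted p under 0.001 in edgeR's quasi-likelihood test and a dashed line at the median of all genes tested, 0.17. The mitochondrial genes run from -2.77 to -0.81 and the cytosolic ones from -2.08 to 1.80; scaling by total counts would move every point and the dashed line to the right by about 1.31 and leave their order nearly as it is.

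The cytosolic synthetases did not move as one. With TMM scaling 6 of 18 were lower, 1 was higher and 11 did not pass, while scaling by total counts gave 14 higher and 1 lower. The 7 called with TMM are 38.9% of the 18, near the 35.6% of all genes tested, and with total counts 52.1% of all genes tested were higher and 7.18% lower. The number lower fell to 3 when UAS-GFP sample 2, UAS-Antp sample 1 or UAS-Antp sample 2 was left out, and to 4 without any single one of the others. The samples of the 2 genotypes did not overlap in 12 genes that were lower with UAS-Antp, did not overlap in 3 that were higher, and overlapped in AsnRS, LeuRS and SerRS. Of all genes tested, 30.6% were lower and 37.6% higher without overlap. Their median log2 fold change was -0.44, or -0.61 relative to the median of all genes tested, and 15 of the 18 lay below that median, a number that was the same with total counts. Their sum was 1294 ± 35.9 CPM (SD, n = 3) in control muscle and 840.2 ± 27.6 CPM (SD, n = 3) in muscle with Antp. As a share of all counts without scaling factors, it was 0.0768% to 0.0868% and 0.129% to 0.139%, so that the sum is lower on one scale and higher on the other.

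AspRS and MetRS stood at the ends of the cytosolic group, and both kept their direction and their call under every scaling, tool and set of samples tried. AspRS (FBgn0002069, 2R, 12877004 to 12883168, plus strand) was at 228, 225 and 230.0 CPM in control muscle and 61.6, 49.5 and 50.3 CPM in muscle with Antp. Its log2 fold change was -2.08 ± 0.12 (SE, adjusted p = 1.3e-07), and from the highest cytosolic enzyme per length it dropped behind ThrRS, GluProRS and HisRS, to 23.8 CPM per kilobase. It shares 154 exon bases on the same strand with asRNA:CR43468, which had 0 to 82 counts, against 5087 to 9105 for AspRS. MetRS (FBgn0034401, 2R, 18846858 to 18850599, minus strand) was at 10.1, 12.98 and 11.7 CPM in control muscle and 43.00, 38.02 and 40.1 CPM in muscle with Antp. It was the only synthetase that was higher, by 3.48-fold, with a log2 fold change of 1.80 ± 0.13 (SE, adjusted p = 1.07e-06). With libraries scaled by total counts, AspRS was the only cytosolic enzyme that was lower, at -0.77, and MetRS had the highest fold change, at 3.11.

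The other 5 cytosolic enzymes that were lower were those for lysine, arginine, tyrosine, threonine and, on one chain, glutamate and proline. LysRS (FBgn0027084, X, 9606363 to 9608884, minus strand) was at 128, 108 and 114 CPM in the control samples and 49.3, 48.6 and 53.7 CPM with Antp, a log2 fold change of -1.21 ± 0.11 (SE, adjusted p = 4.36e-06). ArgRS was at 43.95, 37.3 and 41.95 CPM in the control samples and 19.8, 19.4 and 21.2 CPM with Antp, a change of -1.03 ± 0.12 (SE, adjusted p = 2.55e-05). Both passed in all 6 fits that left out 1 sample, and neither passed with total counts, at 0.12 and 0.29. TyrRS was at 57.2, 62.7 and 53.7 CPM in the control samples and 28.9, 35.3 and 38.8 CPM with Antp, a change of -0.75 ± 0.13 (SE, adjusted p = 0.000623). GluProRS, a fusion of the enzymes for glutamate and proline, was at 278, 260.0 and 226 CPM in the control samples and 153, 155 and 163 CPM with Antp, a change of -0.70 ± 0.11 (SE, adjusted p = 0.000284). ThrRS was at 134, 140.3 and 145 CPM in the control samples and 92.7, 82.3 and 93.7 CPM with Antp, a change of -0.64 ± 0.10 (SE, adjusted p = 0.000305). These 3 were lower without overlap but passed in 1 of the 6 fits that left out 1 sample, and with total counts their fold changes were above 0, at 0.56, 0.62 and 0.67, and the adjusted p of GluProRS and ThrRS was then 0.000733 and 0.000166.

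Of the 11 cytosolic enzymes that did not pass, ValRS, for valine, came closest among those with a fold change above 0, at 0.59 (95% interval 0.30 to 0.88, adjusted p = 0.00268). Its samples were at 15.7, 14.3 and 13.3 CPM in the control samples and 20.6, 22.99 and 21.8 CPM with Antp and did not overlap. IleRS, GlnRS and TrpRS, for isoleucine, glutamine and tryptophan, came closest on the lower side, at -0.54 (95% interval -0.79 to -0.30, adjusted p = 0.00168), -0.49 (95% interval -0.72 to -0.25, adjusted p = 0.00257) and -0.46 (95% interval -0.72 to -0.20, adjusted p = 0.00612). All 3 were lower under the threshold with DESeq2, as were the 6 named before. With total counts, however, these 3 were higher, at 0.78, 0.83 and 0.86. All 11 were higher on that scale, as were 52.1% of all genes tested. GlyRS, for glycine, was at -0.43 (95% interval -0.75 to -0.11, adjusted p = 0.0255) and AlaRS, for alanine, at -0.25 (95% interval -0.51 to 0.01, adjusted p = 0.0878). The intervals of the other 5 include 0, as does that of AlaRS, and show the range of differences that these samples allow on this scale. HisRS, for histidine, had a log2 fold change of -0.07 (95% interval -0.28 to 0.14, adjusted p = 0.545), LeuRS one of 0.03 (95% interval -0.22 to 0.29, adjusted p = 0.816), SerRS one of 0.08 (95% interval -0.21 to 0.38, adjusted p = 0.615), AsnRS one of 0.11 (95% interval -0.16 to 0.37, adjusted p = 0.468) and CysRS one of 0.30 (95% interval -0.04 to 0.64, adjusted p = 0.115). HisRS shares 255 exon bases on the same strand with Bx, which had 687 to 2367 counts, so that part of its 2494 to 9372 counts may belong to either gene. The cytosolic phenylalanine enzyme has separate alpha and beta subunits, whose symbols in the table, alpha-PheRS and beta-PheRS, the rule does not take. Looked up after the other values were seen, alpha-PheRS had a log2 fold change of 0.52 (95% interval 0.12 to 0.93, adjusted p = 0.03) and beta-PheRS one of -0.07 (95% interval -0.33 to 0.20, adjusted p = 0.655). With total counts both were higher, at 1.84 and 1.25.

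Since both kinds of enzyme were counted in the same library, their ratio within a sample does not depend on how libraries are scaled. The summed mitochondrial counts were 0.719 to 0.743 of the summed cytosolic counts in the UAS-GFP samples and 0.328 to 0.344 in the UAS-Antp samples. With each gene divided by its exon length, the ratios were 0.917 to 0.935 and 0.382 to 0.396. Both kinds of ratio include PheRS-m but not its cytosolic counterparts, alpha-PheRS and beta-PheRS. The samples of the 2 genotypes did not overlap in either ratio. The same ratio was taken for each amino acid with both an -m gene and a cytosolic gene, 14 pairs in all, of which 2 use GluProRS as the cytosolic partner. A ratio was the log2 of the mitochondrial over the cytosolic level per length, with 0.5 added to each count, and genotypes were compared by exact permutation (two-sided, over all 6 samples), whose smallest possible p is 0.1, or 0.108 after adjustment over the 14 pairs. No pair can pass 0.05 in this design. The ratio was lower with UAS-Antp without overlap in 12 pairs, higher without overlap in 1 and overlapped in 1, and the median difference was -1.52.

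Methionine was the pair that differed most. The log2 ratio of MetRS-m to MetRS was 0.56, 0.20 and 0.52 in control muscle and -2.12, -2.28 and -2.39 in muscle with Antp, a difference of -2.69 (exact permutation p = 0.1). On the TMM scale MetRS-m was lower and MetRS higher, and with total counts their log2 fold changes were 0.44 and 3.11. For cysteine the log2 ratio was 1.98, 1.69 and 1.85 in control muscle and 0.06, -0.25 and -0.19 in muscle with Antp, a difference of -1.97, the mitochondrial enzyme going from 3.58 times the cytosolic level to 0.92 times. For leucine it was -0.19, -0.35 and -0.01 in control muscle and -2.47, -2.08 and -1.71 in muscle with Antp, a difference of -1.90, while LeuRS itself overlapped between genotypes on the TMM scale. The differences were -1.77 for tryptophan, -1.73 for serine, -1.62 for asparagine, -1.53 for tyrosine and -1.51 for valine. In these 5 pairs the mitochondrial gene was above its cytosolic partner per length in every UAS-GFP sample and below it in every UAS-Antp sample. The differences were smaller for isoleucine (-0.93), proline (-0.61), alanine (-0.61) and glutamate (-0.19). Over all pairs, the mean mitochondrial level was above the cytosolic one in 8 of 14 with UAS-GFP and in 1 of 14, alanine, with UAS-Antp, where the 3 samples lay on both sides of an equal level. Which gene of a pair stood above the other depends on the exon lengths used, whereas the difference between genotypes does not.

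Aspartate and arginine went otherwise. The log2 ratio of AspRS-m to AspRS was -1.85, -2.003 and -1.95 in control muscle and -1.14, -0.89 and -0.90 in muscle with Antp, a difference of 0.96 (exact permutation p = 0.1). On the TMM scale AspRS fell further than AspRS-m, and with total counts their log2 fold changes were -0.77 and 0.19. For arginine the log2 ratios were -2.35, -1.75 and -2.13 in control muscle and -2.14, -1.51 and -1.98 in muscle with Antp, and they overlapped, with a difference of 0.20 (exact permutation p = 0.6). Both genes of the arginine pair were lower without overlap on the TMM scale, ArgRS past the threshold and ArgRS-m not.

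**Figure D3:**
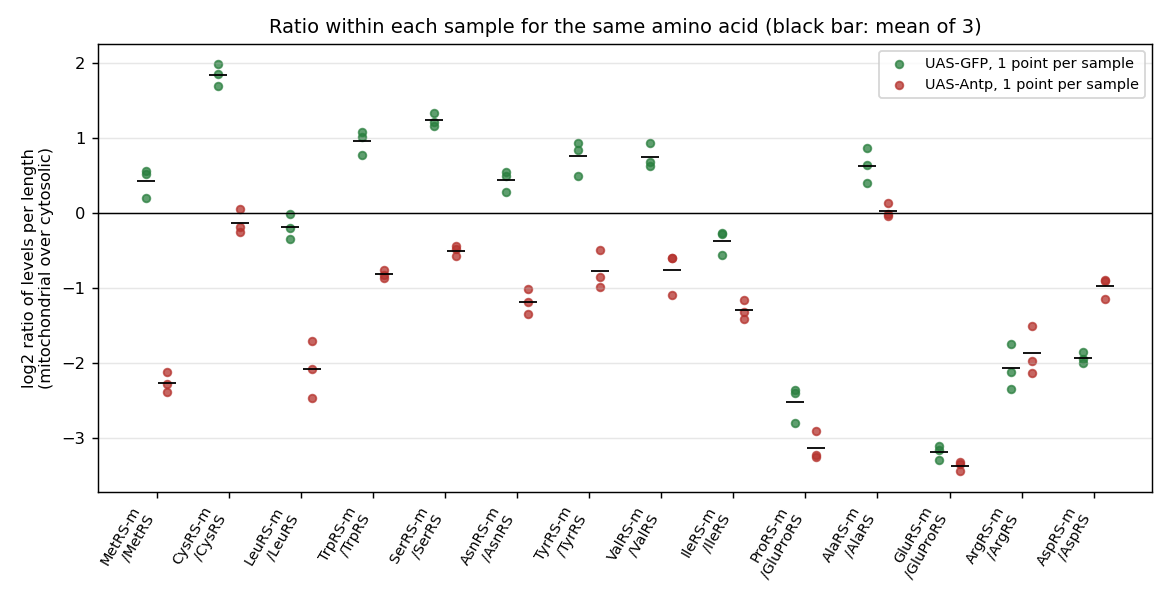
Log2 ratio of mitochondrial to cytosolic level per length within each sample (1 point each) for 14 amino acid pairs, in order of the difference between genotypes, with a black bar at each mean of 3 and a line at equal levels. The UAS-Antp samples (red) lie below the UAS-GFP samples (green) without overlap in 12 pairs, above them for aspartate and among them for arginine, and these ratios do not depend on the scaling of libraries.

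The 5 cytosolic enzymes with no -m counterpart are GlnRS, GlyRS, HisRS, LysRS and ThrRS. In animals a single gene can serve both compartments by making 2 proteins from 2 translation starts, as is known for GlyRS of mammals. The Ensembl annotation, whose gene spans are those of the count table for all 33 genes, gives 2 translation starts for GlyRS, HisRS, LysRS and ThrRS and 1 for GlnRS. Among the other members it gives 2 for GluProRS and AspRS-m and 1 for each of the rest. Counts per gene do not separate transcripts that differ in their start. Of these 5 genes, LysRS and ThrRS were lower and the other 3 did not pass, and all 5 were lower without overlap, as were 30.6% of all genes tested. Their median log2 fold change was -0.49, whereas that of the 13 cytosolic genes with a counterpart was -0.25, with 4 lower and 1 higher. Called genes made up 40.0% of the 5 and 38.5% of the 13, near the 35.6% of all genes tested. Of the 13, 2 were lower when UAS-GFP sample 1 or 2 or UAS-Antp sample 1 or 2 was left out and 3 without either of the others, and of the 5, 1 was lower in every such fit but that without UAS-GFP sample 1, where 2 were. With total counts 4 of the 5 and 10 of the 13 were higher, beside 52.1% of all genes tested.

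Enzymes of the multisynthetase complex, a particle known from flies and mammals in which several cytosolic synthetases sit on 3 scaffold proteins, were compared with the other cytosolic enzymes. Of its 8 enzymes 4 were lower (AspRS, LysRS, ArgRS and GluProRS), MetRS was higher, and GlnRS, IleRS and LeuRS did not pass, with a median log2 fold change of -0.62. Of the 10 cytosolic enzymes outside it, TyrRS and ThrRS were lower and 0 were higher, with a median of -0.16. On the same TMM scale 35.6% of all genes tested were called, 19.3% as lower and 16.3% as higher. Without 1 sample, 3 to 4 of the 8 and 0 to 1 of the 10 were lower, with 0 of the 10 unless the sample was UAS-GFP 1 or UAS-Antp 3. With total counts, 5 of the 8 and 9 of the 10 were higher and 1 of the 8 was lower, beside 52.1% of all genes tested higher and 7.18% lower. The difference between these subsets was not tested. Of the scaffold proteins, AIMP1 was at 77.7 ± 4.08 CPM in the controls and 32.2 ± 1.20 CPM with Antp (SD, n = 3), a log2 fold change of -1.27 ± 0.10 (SE, adjusted p = 1.79e-06). AIMP2 was at 36.8 ± 3.12 CPM in the controls and 15.1 ± 3.41 CPM with Antp (SD, n = 3), a change of -1.28 ± 0.17 (SE, adjusted p = 9.42e-05). AIMP3 did not pass, at 0.32 (95% interval -0.03 to 0.67, adjusted p = 0.105). With total counts AIMP1 and AIMP2 were at 0.05 and 0.04 and AIMP3 was higher, at 1.64.

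Synthetases fall into 2 unrelated structural classes, I and II. With TMM, 16.3% of all genes tested were higher and 19.3% lower. Of the mitochondrial enzymes, 7 of 9 in class I and 6 of 6 in class II were lower, with medians of -1.48 and -1.41, whereas 2 of 9 and 1 of 6 were lower with total counts. Of the cytosolic ones, leaving out GluProRS, which joins both classes, 2 of 9 in class I were lower and 1 higher, and 3 of 8 in class II were lower, with medians of -0.46 and -0.34. Called genes made up 33.3% of these 9 and 37.5% of these 8, near the 35.6% of all genes tested. With total counts 7 of the 9 in class I were higher and 0 lower, and 6 of the 8 in class II were higher and 1 lower, with medians of 0.86 and 0.98. On that scale 52.1% of all genes tested were higher and 7.18% lower. Without 1 sample, 1 to 2 of the 9 cytosolic enzymes in class I and 2 to 3 of the 8 in class II were lower. The spread of levels among the enzymes was narrower with UAS-Antp. The standard deviation of log2 levels per length over the 18 cytosolic genes was 1.29 to 1.37 in the UAS-GFP samples and 0.72 to 0.80 in the UAS-Antp samples. Over the 15 mitochondrial genes it was 1.46 to 1.53 and 0.99 to 1.10. From the highest to the lowest mean level, the cytosolic genes spanned 29.5-fold with UAS-GFP and 5.83-fold with UAS-Antp, and the mitochondrial genes 33.6-fold and 9.01-fold. These spreads do not depend on the scaling of libraries.

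Helpers of mitochondrial tRNA charging were lower as well on the TMM scale. Mitochondria have no glutaminyl enzyme of their own, and GatA, GatB and GatC form the amidotransferase that turns glutamate already joined to the glutamine tRNA into glutamine. GatC was at 235 ± 23.8 CPM in the controls and 30.01 ± 3.88 CPM with Antp (SD, n = 3), a log2 fold change of -2.97 ± 0.14 (SE, adjusted p = 3.58e-08). GatA had a log2 fold change of -1.62 ± 0.14 (SE, adjusted p = 3.81e-06) and GatB one of -1.44 ± 0.14 (SE, adjusted p = 7.38e-06). Slimp, an insect relative of SerRS-m that does not charge tRNA, had one of -1.50 ± 0.15 (SE, adjusted p = 9.26e-06). All 4 were lower without overlap, as were 30.6% of all genes tested. With total counts GatC stayed lower, at -1.66, and the other 3, between -0.31 and -0.12, did not pass.

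Other steps of protein synthesis in mitochondria were taken from lists of genes. Of all genes tested, 19.3% were lower with TMM and 7.18% with total counts. All 73 genes of the mitochondrial ribosome were lower, with a median log2 fold change of -2.47, and 55 of them were lower with total counts. All 8 mitochondrial translation factors tested were lower, with a median of -1.85, and 3 of them were with total counts. They were led by mEFTu1 at -2.85 and mEFTs at -2.75, the elongation factor that brings charged tRNA to the mitochondrial ribosome and its exchange factor, followed by mEFTu2 at -2.22. The others were mIF3 at -1.86, mEFG1 at -1.85, mIF2 at -1.83, mRF1 at -1.62 and mRRF1 at -1.58. Of 4 genes that process mitochondrial tRNA, mldr (-1.52) and rswl (-1.46), subunits of the mitochondrial RNase P, were lower, while its subunit scu (0.53) and RNaseZ (-0.29), which trims the other end of the tRNA, did not pass. None of these 4 was lower with total counts, and scu was higher.

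The machinery of the cytosol was described in the same way, beside the same shares of all genes. Of 81 genes of the cytosolic ribosome tested, 79 were lower and 0 higher, with a median of -1.12, which is further from the median of all genes than that of the cytosolic synthetases. With total counts that median was 0.21, with 1 gene higher and 0 lower. Of 7 cytosolic elongation factors, 6 were lower with TMM, and with total counts 1 was lower and 1 higher. The 1 lower on both scales was eEF1alpha2, a form of the factor that brings charged tRNA to the ribosome, at 15839 ± 2651 CPM in the controls and 1805 ± 154 CPM with Antp (SD, n = 3) and a log2 fold change of -3.13 ± 0.16 (SE, adjusted p = 5.65e-08). Its counterpart eEF1alpha1 was at -1.02, the exchange factor subunits eEF1beta, eEF1gamma and eEF1delta at -1.27, -1.41 and -1.68, and the translocase eEF2 at -1.50. The factor eEF5 did not pass with TMM, at 0.29 (95% interval -0.004 to 0.59, adjusted p = 0.0818). With total counts eEF5 was the 1 higher, at 1.61, beside 52.1% of all genes tested.

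**Figure D4:**
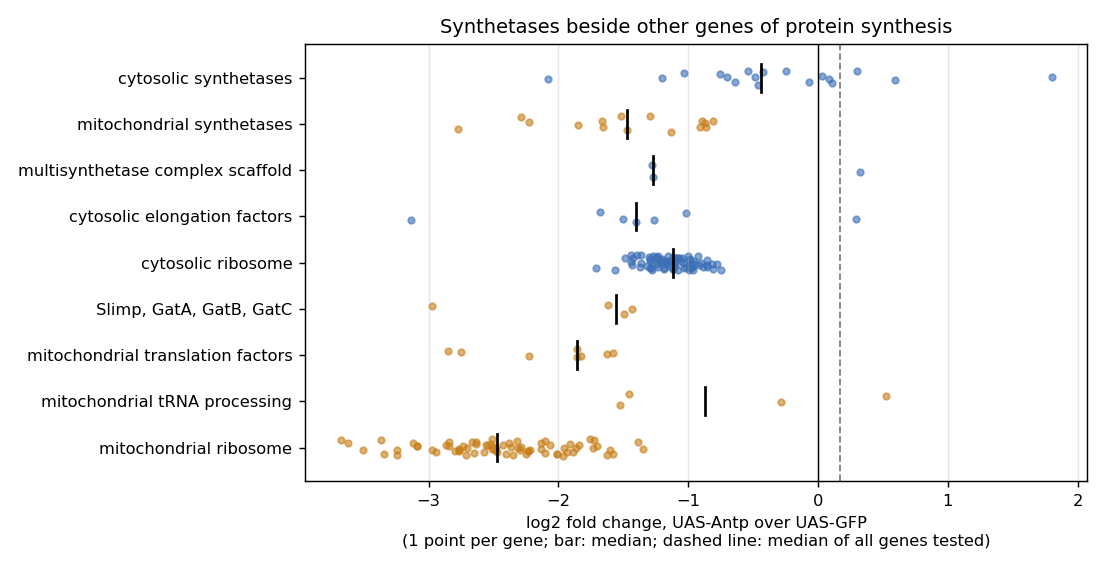
Log2 fold change (UAS-Antp against UAS-GFP) of each gene (1 point) of the synthetases and of other groups of protein synthesis, with a bar at each group's median, mitochondrial groups in orange and cytosolic ones in blue. On the TMM scale shown, the mitochondrial ribosome is lowest, with a median of -2.47, and the cytosolic synthetases are nearest the dashed line, the median of all genes at 0.17. With total counts the medians of the cytosolic synthetases, cytosolic ribosome, mitochondrial tRNA processing and scaffold turn positive, at 0.88, 0.21, 0.45 and 0.05. The medians of the remaining groups stay negative.

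Uncharged tRNA is sensed by the kinase Gcn2, which acts through the transcription factor crc, the fly ATF4, and Thor, the inhibitor of cap-dependent translation, is among the known targets of crc. Of 8 genes of this amino acid response, 1 was higher and 4 were lower on the TMM scale, and 5 were higher and 0 lower with total counts. Of all genes tested, 16.3% were higher and 19.3% lower with TMM, and 52.1% higher and 7.18% lower with total counts. Thor was at 3.11, 5.04 and 5.41 CPM in the control samples and 438, 485 and 446 CPM with Antp, a log2 fold change of 6.66 ± 0.22 (SE, adjusted p = 5.63e-09), with no overlap between the groups. Gcn2 was lower, at -1.53 ± 0.11 (SE, adjusted p = 9.73e-07), and so were crc, at -0.79 ± 0.11 (SE, adjusted p = 0.000109), PPP1R15, which counters the arm by removing the phosphate set by such kinases, at -1.78 ± 0.11 (SE, adjusted p = 2.76e-07), and Nmdmc, a mitochondrial folate enzyme, at -1.55 ± 0.16 (SE, adjusted p = 1.32e-05). PEK, the sister kinase of Gcn2 that responds to the endoplasmic reticulum, had a log2 fold change of -0.38 (95% interval -0.63 to -0.12, adjusted p = 0.0154), AsnS, which makes asparagine, one of 0.08 (95% interval -0.50 to 0.67, adjusted p = 0.803) and Sesn, a sensor of leucine, one of -0.21 (95% interval -0.43 to 0.01, adjusted p = 0.0892). On the TMM scale these genes thus did not go one way. With total counts Thor stayed higher, at 7.98, and crc turned to higher, at 0.53 with an adjusted p of 0.000739, while Gcn2, PPP1R15 and Nmdmc, at -0.22, -0.46 and -0.23, did not pass. PEK, AsnS and Sesn were higher on that scale too, at 0.94, 1.41 and 1.11.

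The scaling of libraries set where zero lies, and it shifted all genes together. The median log2 fold change of all genes tested moved from 0.17 (TMM) to 1.48 (total counts), which is a shift of 1.31, and the share of higher genes among those called was 45.8% and 87.9%. The median of the cytosolic synthetases was -0.44 and 0.88, and that of the mitochondrial ones was -1.48 and -0.16. Relative to the median of all genes, the cytosolic median was -0.61 under both, and the mitochondrial median was -1.64 and -1.65. The mitochondrial minus the cytosolic median was -1.03 with TMM and -1.04 with total counts.

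**Figure D5:**
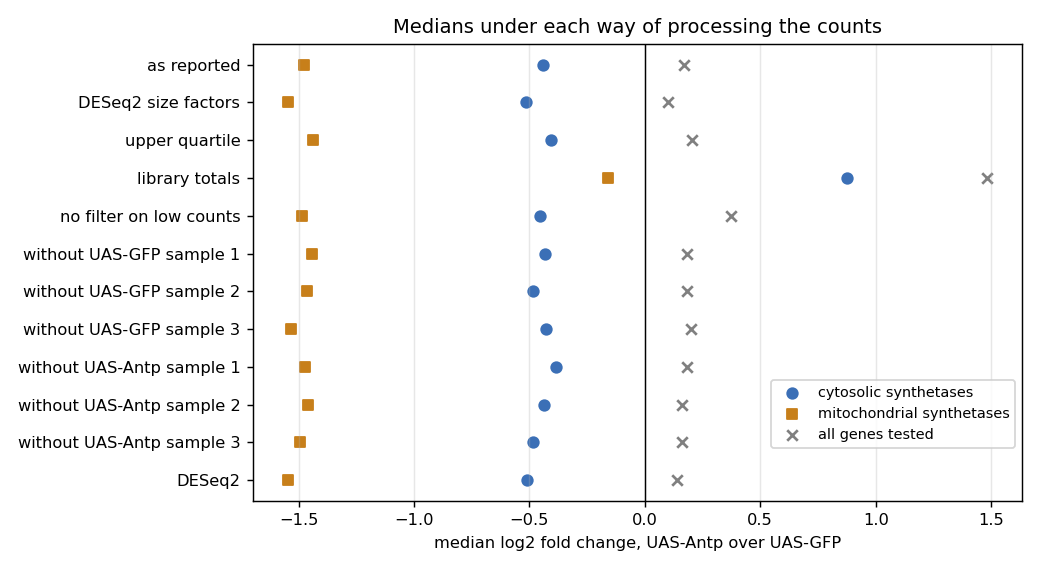
Median log2 fold change of the 18 cytosolic synthetases (blue circles), the 15 mitochondrial synthetases (orange squares) and all genes tested (grey crosses) under each way of processing the counts. Scaling by library totals moves all 3 medians up together, the cytosolic one from -0.44 to 0.88 and so across 0, and under every setting shown the mitochondrial median is the lowest and that of all genes the highest.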

How the data were processed

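RNA-seq counts of 6 libraries were analysed. The authors deposited raw counts per gene, without normalization, for the exons of 17611 genes, counted by strand on FlyBase annotation release 6.42; the submitters' processing notes name bcl2fastq, Subread, featureCounts, dm6 and DESeq2 1.34. Between 75.0% and 81.0% of the counts from 5 to 50 were even numbers, as when the mates of a pair are both counted. The authors' table of fold changes, their errors and p-values was used only for gene symbols (17581 genes). Symbols of the other 30 came from a gene name table or are IDs.

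After filterByExpr (9546 genes kept) and TMM scaling, genotypes were compared by the quasi-likelihood test of edgeR 4.0.16 in R 4.3.3, with p-values adjusted by Benjamini-Hochberg over these genes and a threshold of 0.001. Standard errors are on the log2 scale and intervals are at 95%. DESeq2 1.42.0, other scalings, no filter, a threshold of 0.05 and leaving out each sample were alternatives. Ratios of pairs were compared with exact permutation tests (scipy 1.17.1). Gene spans and exon overlaps come from the exons given with the deposited counts, and translation starts come from Ensembl release 115. The fit was tested on simulated data. Values are given for every synthetase that passed, for the 3 largest changes and the 3 highest levels of each kind, and for both genes of each pair. Other genes come from lists and are named where they passed or where the list has 4 genes or fewer, except that ribosomal genes and cell type markers are given mostly by counts; mEFG2 was not matched. Other genes that did not pass (eEF5, PEK, AsnS, Sesn) were named to account for short lists. The members and lists were chosen with earlier results of these data known.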

Additional observations from a re-analysis of the deposited data

How the results depend on the processing

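No paired analysis was made because the labels name no pairs. They number the UAS-GFP samples 1 to 3 and the UAS-Antp samples 4 to 6. The count table uses 1 to 3 for both genotypes, but nothing says that equal numbers belong together. Scaling by library totals, which moved the median of all genes tested to 1.48, gave 14 cytosolic synthetases higher and 1 lower, 3 mitochondrial ones lower and 5656 genes called, with medians of 0.88 (cytosolic) and -0.16 (mitochondrial). Under it the log2 fold change changed sign for AlaRS (1.07), ArgRS (0.29), GlnRS (0.83), GluProRS (0.62), GlyRS (0.89), HisRS (1.25), IleRS (0.78), LysRS (0.12), ThrRS (0.67), TrpRS (0.86), TyrRS (0.56), AlaRS-m (0.46), ArgRS-m (0.50), AspRS-m (0.19), GluRS-m (0.42), MetRS-m (0.44), ProRS-m (0.017) and ValRS-m (0.41), because every gene moves by the same amount. LeuRS, near 0, changed sign with DESeq2's size factors (-0.036), DESeq2 (-0.034) and in fits that left out 1 sample (-0.033 to 0.11). SerRS changed sign only without UAS-GFP sample 3 (-0.004), in a range of -0.004 to 0.18 over the fits without 1 sample. The cytosolic median was -0.51 with DESeq2's size factors and with DESeq2, which called 4264 genes, 9 cytosolic synthetases lower and all 15 mitochondrial ones lower. A threshold of 0.05 gave 2 cytosolic synthetases higher, 10 lower and 5807 genes called. Without 1 sample, 3 to 4 cytosolic synthetases were lower, 3 of them without UAS-GFP sample 2, UAS-Antp sample 1 or UAS-Antp sample 2, 10 to 12 mitochondrial ones were lower, the cytosolic median was -0.49 to -0.39 and the median pair difference -1.57 to -1.39. The cause was not tested. No alternative run called a mitochondrial synthetase higher. Taking the median over only the 13 cytosolic genes with a counterpart, chosen after seeing the data, gave -0.25, with the mitochondrial median lower by -1.23, and adding alpha-PheRS and beta-PheRS, also chosen afterwards, gave -0.34. With 3 samples a genotype, an exact permutation test cannot go below 0.1, and counts per gene cannot separate transcripts or the mates of a fragment.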
